A study of Rattus norvegicus with 35 samples.

Results

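The genes described here are those of the cytosolic ribosomal proteins, measured in the retina of adult rats after injury of the optic nerve. They were taken from the array annotation by symbol: every gene named Rpl or Rps with a number, alone or followed by a, x, y or l, and Rplp0, Rplp1, Rplp2 and Rpsa, where a probe set carried that symbol alone. Of the 14217 genes with such a probe set, 44 met this rule, 30 of the large (60S) and 14 of the small (40S) ribosomal subunit, and where a gene had several probe sets the brightest on average over the arrays was read. A further 33 probe sets that listed a ribosomal protein symbol among several were kept apart.

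Each cytosolic ribosome holds 1 copy of nearly all of its proteins, so a cell makes these proteins in similar amounts, and their mRNAs belong to the most abundant mRNAs of any tissue. Most start with a cytosine followed by a run of pyrimidines, the 5′ terminal oligopyrimidine (TOP) tract, through which their translation follows the mTOR kinase and the binding protein Larp1. Axon injury in the optic nerve is followed by the death of retinal ganglion cells and by activation of glia, and mTOR activity and protein synthesis in injured neurons are much studied in this setting.

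The TOP tract is shown for 8 genes, because it is the feature that ties these mRNAs together and that the choice of genes did not use. Each line gives 30 bases of the gene's strand, 5′ to 3′, with the longest run of C and T in capitals. The first 10 bases lie before the transcription start annotated by RefSeq on build GRCr8, and the other 20 begin at it.
Rpl19 (chr10:83519054-83519083, plus strand): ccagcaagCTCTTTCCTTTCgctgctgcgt
Rpl27a (chr1:172974563-172974592, plus strand): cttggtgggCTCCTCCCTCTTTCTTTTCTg
Rpl34 (chr2:221962264-221962293, minus strand): TCCTTTTCCTCTTCCggggacggtgcttag
Rpl23 (chr10:83272165-83272194, minus strand): CTTCCTTTCTgactctttccggacgctcaa
Rps15 (chr7:10068096-10068125, minus strand): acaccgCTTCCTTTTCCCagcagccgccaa
Rps23 (chr2:23814507-23814536, plus strand): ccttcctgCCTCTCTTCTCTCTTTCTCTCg
Rps24 (chr16:96507-96536, plus strand): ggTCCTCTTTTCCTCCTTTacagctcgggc
Rps27l (chr8:76443648-76443677, plus strand): TTCatttgtcattatttgtggtgtccagag
The first 7 hold a run of at least 10 pyrimidines across or beside the start. The start of Rps27l, the p53-induced paralogue of Rps27, holds none longer than 3. This is not particular to Rps27l, since Rpl11 and Rpl41 also had no run longer than 3 there. Rpl26 had none longer than 4 within 20 bases of its start. Promoter sequence was at hand for 37 of the 44 genes. Within 20 bases on either side of the start, the letters CTTTCC or CTTTTC stood on the gene's strand in 17 of the 37 (45.9%), against 3.12% of 33465 annotated starts, and on the other strand in 1 of the 37 (2.7%), against 3.24%. CTTTCC was found in 11 genes and CTTTTC in 6, with no gene holding both. A run of 7 or more pyrimidines, which overlaps with both motifs, was present in 75.7% of the 37, against 23.7% of all starts. Such matches describe the sequence only. Rpl7, Rpl23a, Rpl27, Rpl30, Rpl37a, Rps9 and Rps29 are named without one.

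Total RNA of left retinas of adult female Sprague-Dawley rats was hybridised to Affymetrix RAE230.2 arrays, 35 in all. Each array held a pool of 4 retinas, 1 from each of 4 animals, and p-values measure the spread between such pools. The left optic nerve had been cut in the orbit (intraorbital nerve transection, IONT) 12 h (3 arrays), 24 h (2), 48 h (3), 3 d (2), 7 d (3) or 15 d (2) before, or crushed there (IONC) at any of these intervals but 15 d (3 arrays each), or the animals were naive (5 arrays). IONT 12 h, 48 h and 7 d and every IONC group were set against naive replicates 1 to 3, and IONT 24 h, 3 d and 15 d against naive replicates 4 and 5. The whole retina was sampled, and fewer cells of a type cannot be told apart from less RNA per cell.

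Rod markers were bright, as the tissue label asks. Of the 9 rod genes on the list 7 had a probe set, and averaged 13.08 to 14.87 in log2 in naive replicates 1 to 3. The lens markers Cryaa (14.61), Cryba1 (14.48) and Crybb2 (14.21) were as bright there, and Crygd (8.28) and Crygc (8.13) were not. The markers thus do not show that the samples held retina alone. The arrays of IONT 24 h, 3 d and 15 d and of naive replicates 4 and 5 stood apart from the other 27 in the β-actin control, whose 3′ probe set exceeded the 5′ one by 2.61 to 3.65 in log2, against 1.53 to 1.93 elsewhere. A second departure touches nearly every result below. IONC 12 h replicate 2 correlated with the other arrays at a median r of 0.871, against 0.962 to 0.992 for those arrays, and the ribosomal protein genes had a median SD of 0.423 in the IONC 12 h group and 0.0481 to 0.14 in the other groups. All arrays share 1 estimate of the spread, so the counts of calls among these 44 genes are given with and without that array.

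The ribosomal protein genes fell into 2 ranges of signal. On 38 probe sets the mean over all arrays lay between 11.74 and 14.48 (log2), at or above the 97.7th percentile of all genes. Rps29, a small zinc-binding protein of the 40S head, had the highest mean (14.48), followed by Rpl26 (14.21), which sits near the exit of the nascent chain, and Rpl3 (13.94), which borders the peptidyl transferase centre. The other 6 lay far below, with no gene between 5.7 and 11.74. They were Rpl39 (5.70), Rps27l (3.98), Rpl28 (3.70), the muscle paralogue Rpl3l (2.69), Rpl30 (2.40) and Rps13 (2.21). Signals of different probe sets are not comparable as mRNA amounts. In all, 41 of the 44 exceeded 4 on at least 2 arrays.

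After transection, ribosomal protein mRNAs had a median level above that of naive retinas at 12 h to 3 d, by 1.17-fold to 1.27-fold, and close to it at 7 d. The median log2 change over the 44 genes was 0.23 (12 h), 0.29 (24 h), 0.32 (48 h), 0.35 (3 d), 0.066 (7 d) and 0.19 (15 d). Over all genes the medians of the same 6 comparisons lay between -0.013 and 0.042. After crush the medians were -0.012 for the 12 h group, or 0.22 without IONC 12 h replicate 2, then 0.20 (24 h), 0.12 (48 h), 0.026 (3 d) and 0.092 (7 d), with all-gene medians of -0.075 (0.011 without that array) to 0.047. No single gene of the 44 passed the test in any of these 11 comparisons across all arrays. The test asked for a limma adjusted p under 0.01 over all probe sets, positive log odds and a 1.2-fold difference or more.

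**Figure D1:**
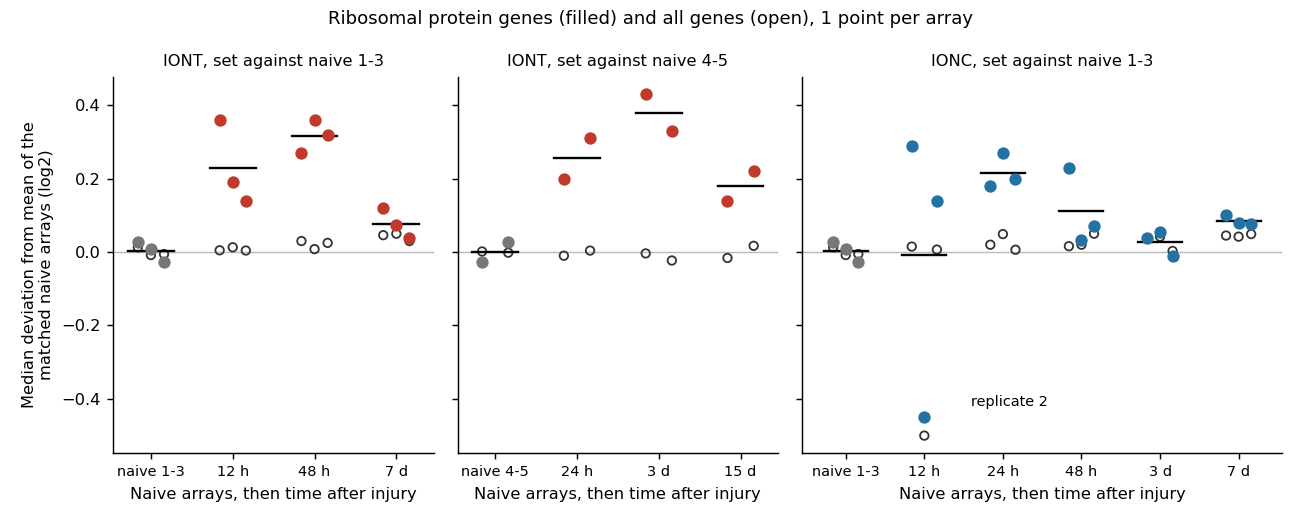
Median over the 44 ribosomal protein genes (filled) and over all genes (open) of the log2 deviation from the mean of the matched naive arrays, 1 point per array, with the group mean of the filled points as a bar. The IONT arrays up to 3 d lie between 0.14 and 0.43, the IONT 7 d arrays between 0.037 and 0.12, and IONC 12 h replicate 2 lies at -0.45.

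The 48 h transection group gave the most calls without that array. Its 3 arrays had median deviations of 0.27, 0.36 and 0.32, against 0.027, 0.0073 and -0.028 on naive replicates 1 to 3, so the groups did not overlap. All 44 genes had a change above 0, as did 59.9% of all genes. The 38 genes of high signal had changes of 0.13 or more, while the smallest change of the 44 was 0.0052. For 36 of the 44, every injured array lay above every naive array, against 21.9% of all genes. An unadjusted p under 0.05 with a higher level was reached by 28 of the 44, against 6.35% of all genes. Across all arrays 2.64% of genes were called in either direction and none of the 44 was. Without IONC 12 h replicate 2, 15 of the 44 were called higher, against 2.98% of all genes.

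Those 15 came from both subunits. The 60S genes among them were Rpl3, Rpl5, Rpl19, Rpl22, Rpl23, Rpl23a, Rpl27a, Rpl34, Rpl35 and Rpl37a, of which Rpl5 joins the 5S rRNA particle that can bind Mdm2, and Rpl23a and Rpl35 line the exit of the nascent chain. The 40S genes were Rps3a, Rps6, Rps23, Rps24 and Rps28, of which Rps6 is the classical substrate of the S6 kinases and Rps23 lies at the decoding centre. Rps24, a 40S protein whose loss causes Diamond-Blackfan anaemia in humans, had log2 signals of 14.08, 14.12 and 14.11 at IONT 48 h, against 13.63, 13.48 and 13.47 on naive replicates 1 to 3. All 3 injured arrays were higher, by 0.58 (SE 0.14), or 1.5-fold, with a limma adjusted p of 0.0141 across all arrays and 0.000133 without IONC 12 h replicate 2. Rps28, a small protein near the mRNA exit channel, had 12.50, 12.68 and 12.52 at IONT 48 h, against 11.95, 12.02 and 12.11 in naive retinas. The groups did not overlap and differed by 0.54 (SE 0.14), or 1.45-fold, with a limma adjusted p of 0.0229, and of 0.000422 without that array. Rpl22, an RNA-binding 60S protein, had 12.37, 12.55 and 12.34 at IONT 48 h, against 11.85, 11.93 and 11.88. It too was higher on all 3 arrays, by 0.54 (SE 0.18), with a limma adjusted p of 0.128, and of 0.00323 without that array. For Rpl23a the change was 0.53 (SE 0.13; limma adjusted p of 0.0163, and of 0.00014 without that array). These names follow the rule for named genes applied to the fit without that array, a step chosen after the values were seen.

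At 12 h after transection the same direction was seen with more spread between arrays. Replicate 1 had a median deviation of 0.36 and replicates 2 and 3 had 0.19 and 0.14, all above the naive arrays. Again all 44 changes were above 0, against 57.5% of all genes, and 29 of the 44 had no overlap with naive, against 14.9%. The 38 genes of high signal had changes of 0.11 or more, and the smallest change of the 44 was 0.004. Of the 44, 13 reached an unadjusted p under 0.05 and were higher, against 4.53% of all genes. None was called across all arrays (1.29% of all genes in either direction) and none without IONC 12 h replicate 2 (2.10% of all genes higher). The change nearest to 0.5 was that of Rpl22, whose 12.52, 12.25 and 12.31 at IONT 12 h compare with the naive values above and give 0.48 (SE 0.18; limma adjusted p of 0.331).

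By 7 d after transection the 3 arrays stood at 0.12, 0.073 and 0.037, all just above the naive arrays, of which the highest had 0.027. A change above 0 was found for 32 of the 44, against 55.4% of all genes, and 17 did not overlap with naive on the higher side, against 37.6%. No gene of the 44 reached an unadjusted p under 0.05 as higher, against 4.23% of all genes. None was called across all arrays (1.2% in either direction) or without IONC 12 h replicate 2 (1.96% higher).

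**Figure D2:**
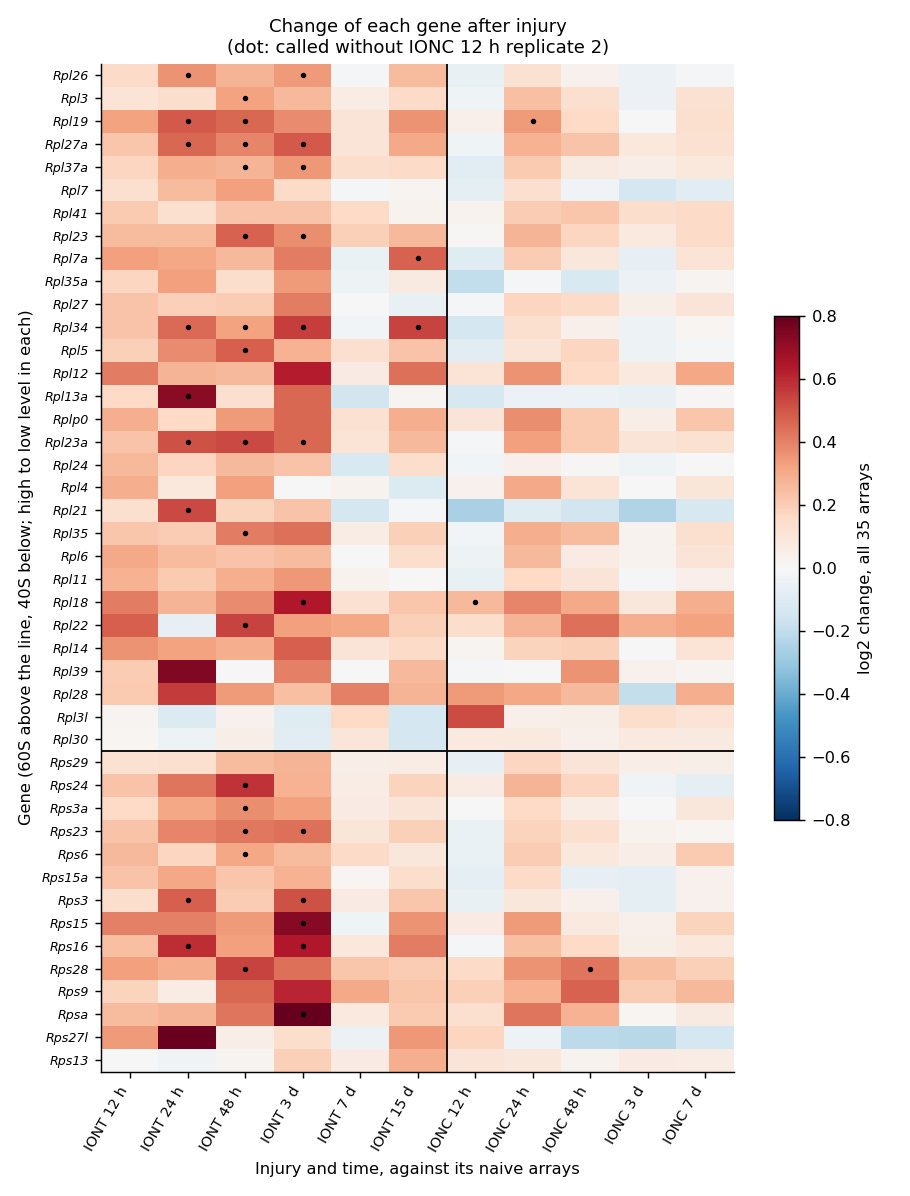
Log2 change of each of the 44 genes in the 11 comparisons with naive arrays (colour, all 35 arrays), 60S genes above the line and 40S genes below, each in order of mean signal. Dots mark the 41 values called without IONC 12 h replicate 2, of which 15 lie at IONT 48 h, 12 at IONT 3 d and 9 at IONT 24 h.

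The transection groups set against naive replicates 4 and 5 had 2 arrays each, and their changes depended on the scaling and on the naive arrays used. At 24 h the 2 arrays had median deviations of 0.20 and 0.31, against -0.028 and 0.028 in the 2 naive arrays, with 40 of 44 changes above 0 (48.4% of all genes). No overlap with naive on the higher side was seen for 34 of the 44, against 26.0% of all genes. Of the 44, 16 reached an unadjusted p under 0.05, against 5.58%. None was called across all arrays (0.499% in either direction), and 9 were called higher without IONC 12 h replicate 2, against 1.48% of all genes. With the arrays also centred on their medians none of the 9 was called, and the median change of the 44 became 0.16. This centring also moved the median over all genes, to -0.13 at IONT 24 h, -0.16 at IONT 3 d and -0.20 at IONT 15 d. Arrays of these injured groups had medians of 4.49 to 4.60 and naive replicates 4 and 5 had 4.37 and 4.38.

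The 9 genes at 24 h were Rpl13a, Rpl19, Rpl21, Rpl23a, Rpl26, Rpl27a, Rpl34, Rps3 and Rps16. Rpl13a, which in human monocytes also leaves the ribosome to silence inflammatory transcripts, had 12.93 and 13.03 at IONT 24 h, against 12.05 and 12.47 on naive replicates 4 and 5. Both injured arrays were above both naive arrays, by 0.72 (SE 0.19), or 1.65-fold, with a limma adjusted p of 0.0561, and of 0.00795 without IONC 12 h replicate 2. Rps16, whose tail reaches the P site, had 12.23 and 12.50 at IONT 24 h, against 11.60 and 11.96. The change was 0.59 (SE 0.17; limma adjusted p of 0.0872, and of 0.00342 without that array). The change of Rpl21 was 0.53 (SE 0.17) and that of Rpl23a 0.51 (SE 0.16), with limma adjusted p of 0.14 and 0.114, and of 0.00626 and 0.00353 without that array.

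At 3 d the 2 arrays stood at 0.43 and 0.33, and the median change of the 44, at 0.35, was the highest of the 11 comparisons with naive in the scaling as deposited. With arrays centred it was 0.20 at IONT 3 d and 0.30 at IONT 48 h, and with all 5 naive arrays as 1 group 0.16 and 0.47, so the order turned. A change above 0 was seen for 41 of 44 (47.0% of all genes), and 35 of the 44 did not overlap with naive on the higher side, against 23.3%. An unadjusted p under 0.05 was reached by 24 of the 44 as higher, against 7.85%. Again none was called across all arrays (0.795% in either direction), 12 were called higher without IONC 12 h replicate 2 (2.53% of all genes), and 1 of the 44 with that array out and the arrays centred. The 12 were Rpl18, Rpl23, Rpl23a, Rpl26, Rpl27a, Rpl34, Rpl37a, Rps3, Rps15, Rps16, Rps23 and Rpsa.

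Rpsa, a 40S protein also known as the laminin receptor precursor, had 10.98 and 11.36 at IONT 3 d, against 10.27 and 10.46 on naive replicates 4 and 5. Both injured arrays were higher, by 0.81 (SE 0.22), or 1.75-fold, with a limma adjusted p of 0.0616, and of 0.00414 without IONC 12 h replicate 2. The same gene read 11.97, 12.01 and 11.95 on naive replicates 1 to 3, above every value just given. Against all 5 naive arrays as 1 group its change at IONT 3 d was -0.16. Rps15, a 40S protein that touches the decoding site, had 12.97 and 13.19 at IONT 3 d, against 12.27 and 12.42. The difference was 0.73 (SE 0.18), or 1.66-fold, with a limma adjusted p of 0.0335, and of 0.00126 without that array. The changes of Rpl18 and Rps16 were both 0.64 (SE 0.20 and 0.17), with limma adjusted p of 0.109 and 0.0538, and of 0.00208 and 0.00163 without that array.

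At 15 d after transection, when the summed linear signal of the ganglion cell markers was 596 to 710 against 9550 to 10300 in naive replicates 4 and 5, the ribosomal protein arrays stood at 0.14 and 0.22. Changes above 0 numbered 38 of 44 (51.4% of all genes), and 28 of the 44 did not overlap with naive on the higher side, against 31.2%. Of the 44, 6 reached an unadjusted p under 0.05 as higher, against 10.2% of all genes. Not one was called across all arrays (1.81% in either direction), but 2 without IONC 12 h replicate 2 (3.57% higher), namely Rpl34 and Rpl7a. The median of the 44 was -0.019 with the arrays centred and -0.032 against all 5 naive arrays.

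Rpl34, a 60S protein with the long tract shown above, was the one gene called in 4 comparisons without that array. Its log2 signal was 12.73 and 13.06 at IONT 24 h, 12.89 and 13.10 at IONT 3 d and 12.96 and 13.01 at IONT 15 d, against 12.36 and 12.52 on naive replicates 4 and 5. At IONT 48 h it was 13.30, 13.40 and 13.37, against 13.05, 13.02 and 13.03 on naive replicates 1 to 3. No injured array overlapped with its naive arrays in these 4 groups. The changes were 0.45, 0.32, 0.55 and 0.54 at 24 h, 48 h, 3 d and 15 d, with limma adjusted p of 0.262, 0.322, 0.104 and 0.0864, and of 0.0036, 0.00548, 0.000527 and 0.000449 without IONC 12 h replicate 2. In the 15 IONC arrays Rpl34 lay between 12.34 and 13.24, and at 13.12 to 13.20 in the 24 h group. Rpl19, Rpl23a and Rpl27a were each called in 3 comparisons. In all, 24 of the 44 were called higher in at least 1 comparison without that array, against 12.2% of all genes, and 12 in 2 or more, against 4.92%. None of the 44 was called lower, against 9.78% of all genes in at least 1 comparison.

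**Figure D3:**
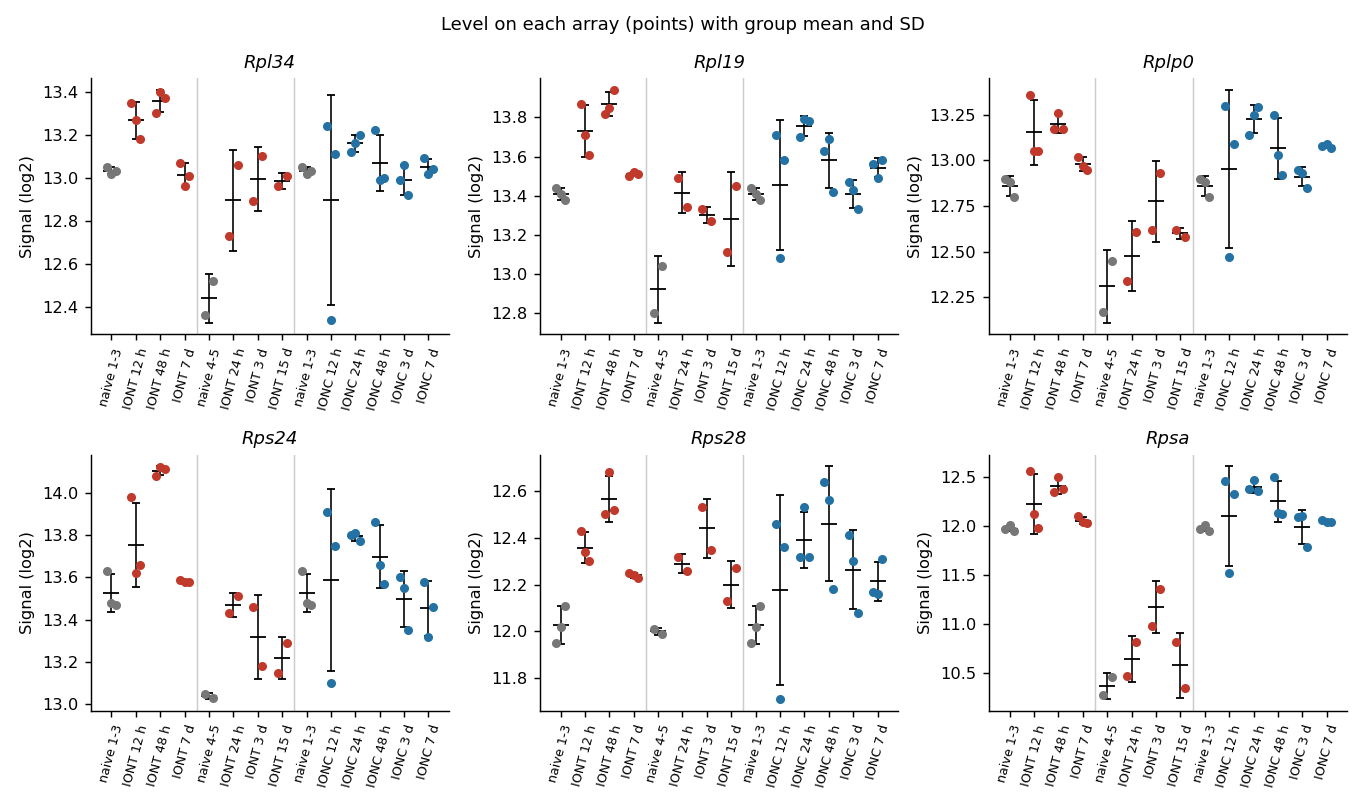
Log2 signal of 6 ribosomal protein genes on every array (points), with the group mean and SD, in 3 blocks divided by grey lines (IONT with naive replicates 1 to 3, IONT with naive replicates 4 and 5, IONC with naive replicates 1 to 3 again). Rpsa reads 10.27 to 11.36 on the arrays of the middle block and 11.52 to 12.57 on those of the outer blocks.

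After crush, the 3 arrays of 12 h disagreed. Replicates 1 and 3 had median deviations of 0.29 and 0.14, both above the naive arrays, while replicate 2 had -0.45, on which the median over all genes was -0.50. The changes above 0 therefore numbered 20 of 44 with all arrays (46.4% of all genes) and 42 of 44 without replicate 2. No gene of the 44 separated from naive on the higher side across the 3 arrays, against 8.84% of all genes, and 1 reached an unadjusted p under 0.05 as higher, against 20.3%. None was called across all arrays (5.22% in either direction), and Rpl18 alone without replicate 2 (3.66% of all genes higher). Rpl18, a 60S protein, had 12.86, 11.89 and 12.75 at IONC 12 h, against 12.28, 12.36 and 12.07 in naive retinas. Its change was 0.26 (SE 0.16; limma adjusted p of 0.188) with all arrays and 0.57 (SE 0.11; 0.00147) on the remaining 2.

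At 24 h after crush the arrays agreed better, at 0.18, 0.27 and 0.20, all above naive. A change above 0 was found for 39 of 44 (60.8% of all genes), and 32 did not overlap with naive on the higher side, against 20.3%. Of the 44, 13 reached an unadjusted p under 0.05 as higher, against 4.85% of all genes. No gene of the 44 was called across all arrays (1.04% in either direction), and only Rpl19 without IONC 12 h replicate 2 (1.73% higher). Rpl19, which forms a bridge between the subunits, had 13.70, 13.79 and 13.78 at IONC 24 h, against 13.44, 13.41 and 13.38 in naive retinas. The groups were 0.34 apart (SE 0.11; limma adjusted p of 0.171, and of 0.0096 without that array).

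From 48 h onward the crush groups lay closer to naive. At 48 h replicate 1 had 0.23 and replicates 2 and 3 had 0.034 and 0.07, with 38 of 44 changes above 0 (62.9% of all genes). Higher and without overlap were 14 of 44 genes, against 27.0% of all, and 3 reached an unadjusted p under 0.05, against 7.77%. Across all arrays no call was made among the 44 (1.54% of all genes in either direction), and without IONC 12 h replicate 2 only Rps28 (2.75% of all genes higher), which had 12.64, 12.56 and 12.18 at IONC 48 h and a change of 0.43 (SE 0.14; limma adjusted p of 0.093, and of 0.00386 without that array).

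At 3 d the crush arrays read 0.038, 0.055 and -0.01, with 26 of 44 changes above 0 (55.7% of all genes), 9 genes higher without overlap against 34.5% of all, and none of the 44 higher at an unadjusted p under 0.05, against 4.02%. At 7 d they read 0.10, 0.078 and 0.077, with 38 of 44 above 0 (60.2%), 23 higher without overlap against 38.6%, and 1 higher at an unadjusted p under 0.05 against 3.53%. The share of genes without overlap was under the background at 3 d and above it at 7 d. No gene of the 44 was called at either time, across all arrays (0.394% and 0.689% of all genes in either direction) or without IONC 12 h replicate 2 (0.907% and 1.21% higher).

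The difference between the lesions was tested itself, as IONC minus IONT. It asks whether crushing and cutting the nerve left the genes at different levels. In the study the cut was made closer to the optic disc than the crush, so the type of lesion and its distance from the eye cannot be told apart. The median over the 44 was -0.24 (12 h), -0.092 (24 h), -0.18 (48 h), -0.36 (3 d) and 0.011 (7 d), against all-gene medians of -0.10, 0.024, 0.009, -0.010 and -0.0002. Without IONC 12 h replicate 2 the 12 h median was -0.016. No gene of the 44 was called at any of the 5 times across all arrays, where 1.62%, 0.120%, 0.148%, 0.0492% and 0.0563% of all genes were. An unadjusted p under 0.05 with the lower level after crush was reached by 13, 3, 11, 13 and 0 of the 44, against 22.5%, 4.47%, 2.61%, 5.14% and 1.27% of all genes.

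Without IONC 12 h replicate 2 the genes called lower after crush were 0, 0, 0, 1 and 0 of the 44, against 0.872%, 0.492%, 0.267%, 0.521% and 0.134% of all genes. The one gene was Rpl34 at 3 d, at -0.60 (SE 0.22; limma adjusted p of 0.4 across all arrays, and of 0.00738 without that array), although its signal was alike in both injured groups, at 12.99, 13.06 and 12.92 at IONC 3 d and 12.89 and 13.10 at IONT 3 d. The 24 h and 3 d differences set changes from different naive arrays against each other. With all 5 naive arrays as 1 group, these differences compare the injured groups directly and no naive array enters them. Their medians were then 0.26 and 0.092, so the direction turned at both times. At 48 h, where both lesions share naive replicates 1 to 3, the IONC arrays lay under every IONT array for 20 of the 44 genes, against 6.63% of all genes, and above every one for 1, against 8.12%.

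The 2 sets of naive arrays differed in these genes. In naive replicates 4 and 5 the median over the 44 was 0.40 lower in log2 than in naive replicates 1 to 3, against -0.0068 over all genes, and 36 of the 44 were lower without overlap, against 29.2% of all genes. With cyclic loess scaling the median was -0.23. Of the 44, 7 were called lower across all arrays, against 3.01% of all genes called lower and 5.18% called in either direction. This became 21 of the 44 without IONC 12 h replicate 2, against 6.48% lower. Rpsa had 10.27 and 10.46 on naive replicates 4 and 5, against 11.97, 12.01 and 11.95 on naive replicates 1 to 3, a difference of -1.61 (SE 0.20; limma adjusted p of 2.34e-06). Rps16 had 11.60 and 11.96, against 13.02, 12.94 and 12.85, a difference of -1.16 (SE 0.16; limma adjusted p of 5.84e-06). Rps27l had 2.11 and 2.34, against 4.34, 4.31 and 4.58 (fitted difference -2.19; limma adjusted p of 3.64e-06), but its 2 lower values lie at the level of the dimmest genes, Rps13 and Rpl30, so the size of its difference is not read. No value of either set overlapped with the other in these 3 genes, and the further calls were Rpl13a (-0.83), Rps15 (-0.74), Rps15a (-0.64) and Rpl24 (-0.64). The β-actin 3′ excess given above moved with the same split of the arrays. So did the summed linear signal of 3 markers of optic nerve oligodendrocytes. It was 18.8 to 28.6 in naive replicates 4 and 5, against 138 to 171 in naive replicates 1 to 3. This sum rests on Mbp, which averaged 7.19 in log2 in naive replicates 1 to 3. Mog (2.32) and Mag (2.08) lay there at the level of the dimmest genes. The sum of 3 bipolar cell markers differed between the naive sets, at 4030 to 4520 against 6960 to 8100 (mean log2 9.68 against 9.89). It did not follow the split in injured retinas, with 4280 to 4720 at IONT 12 h and 5520 to 5690 at IONT 15 d. The part of any of these in the difference was not tested.

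**Figure D4:**
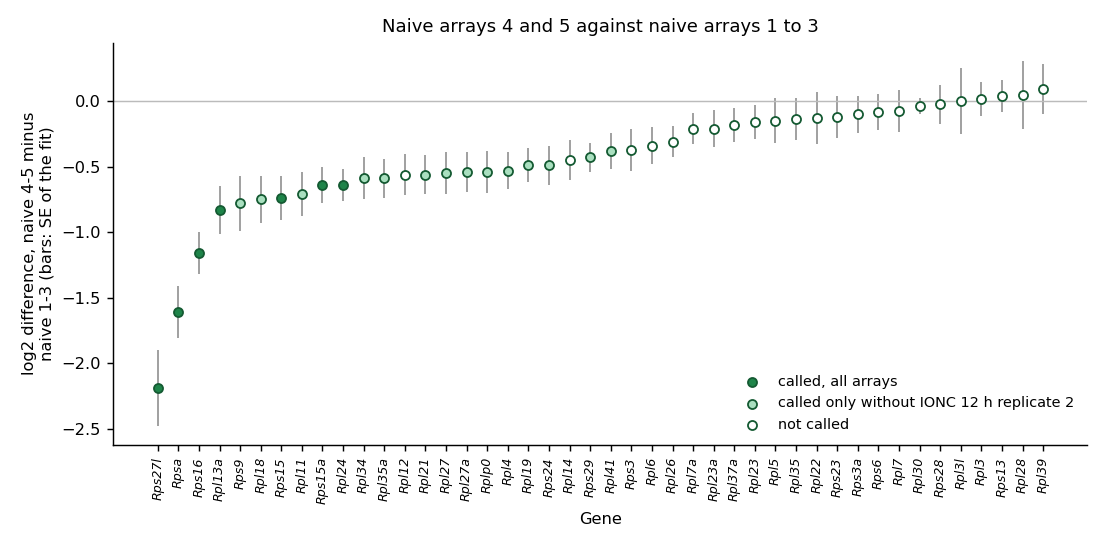
Log2 difference of naive replicates 4 and 5 minus naive replicates 1 to 3 for each of the 44 genes, with the SE of the fit, in order of size. The 7 dark points were called lower across all arrays, among them Rps27l (-2.19, from signals near the dimmest), Rpsa (-1.61) and Rps16 (-1.16), and the highest difference is that of Rpl39 at 0.09.

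The subunits had close medians. At IONT 48 h the median change was 0.29 over the 60S genes and 0.33 over the 40S genes, at IONT 3 d it was 0.35 and 0.39, and at IONC 24 h 0.20 and 0.19. Over 5 pairs of groups with no naive array in common, out of more that could be formed, the changes of the 44 genes correlated at r = -0.22 to 0.48, and those of the 38 genes of high signal at -0.31 to 0.42. The points of such a correlation share arrays, and the values are a description.

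Rplp0, the protein that anchors the stalk recruiting elongation factors, had 13.36, 13.05 and 13.05 at IONT 12 h and 13.17, 13.26 and 13.17 at IONT 48 h, against 12.90, 12.88 and 12.80 on naive replicates 1 to 3. Those injured arrays were all higher, by 0.29 (SE 0.14) and 0.34 (SE 0.14), with limma adjusted p of 0.641 and 0.282, and of 0.0834 and 0.0222 without IONC 12 h replicate 2. Neither Rplp1 nor Rplp2 had a probe set of its own. Of Rpl30, Rpl31 and Rpl37, which served as reference mRNAs in the study's PCR, only Rpl30 had one, and it read 2.17 to 2.58 on the 35 arrays, so it carries no usable value here. The paralogues Rpl3l and Rps27l were not called after either lesion, and Rpl3l read 2.40 to 2.89 on every array but IONC 12 h replicate 2, where it read 4.19.

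The 33 probe sets with several symbols are separate probe sets, though some may detect the same mRNAs as the 44. Their median change after transection was 0.31 (12 h), 0.29 (24 h), 0.34 (48 h), 0.39 (3 d), 0.045 (7 d) and 0.14 (15 d). After crush it was 0.049 for the 12 h group, or 0.33 without replicate 2, then 0.25 (24 h), 0.20 (48 h), 0.04 (3 d) and 0.13 (7 d). Across all arrays 1 of them was called higher at IONT 48 h and 1 at IONT 3 d (2.64% and 0.795% of all genes in either direction). Without IONC 12 h replicate 2, the IONT counts in order of time were 6, 3, 11, 5, 0 and 3. Of all genes 2.10%, 1.48%, 2.98%, 2.53%, 1.96% and 3.57% were then called higher. The IONC counts were 3, 4, 2, 0 and 0, against 3.66%, 1.73%, 2.75%, 0.907% and 1.21% of all genes. None of the 33 was called lower in any comparison.

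Other lists of the translation machinery had smaller medians in the first 4 transection groups, but not in every other group. The 10 elongation factors, among them Eef1a1, which brings tRNA to the ribosome, had medians of 0.15 (12 h), 0.19 (24 h), 0.23 (48 h) and 0.29 (3 d) after transection, with none called across all arrays. Eef1a1 itself had a change of 0.24 at IONT 48 h (limma adjusted p of 0.595). The 11 measured genes of other TOP mRNAs had medians of 0.22, 0.21, 0.24 and 0.27 at those times, and none was called across all arrays. Of these, Eef1a1, Eef1b2, Eef1d, Eef1g and Eef2 are also among the elongation factors. Eif3f, Eif3h and Eif4b are also among the initiation factors described below, so the medians of these lists are not independent. After crush, without IONC 12 h replicate 2, the elongation factors had medians of 0.30, 0.16, 0.20, 0.061 and 0.079 in order of time. The other TOP mRNAs had 0.25, 0.20, 0.18, 0.031 and 0.10. Both lists stood above the 44 genes at IONC 12 h, 48 h and 3 d, where these had 0.22, 0.12 and 0.026. At IONT 15 d the mitochondrial ribosomal proteins (0.24) and ribosome biogenesis factors (0.26) described below stood above the 44 genes (0.19). Without IONC 12 h replicate 2, Rack1, a scaffold protein of the 40S subunit, was called higher in 4 comparisons, with a change of 0.49 at IONT 48 h, and Eef1b2, the exchange factor of Eef1a1, in 2, with 0.56 at IONT 24 h and 0.57 at IONT 3 d.

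The 34 initiation factors had medians of 0.11, -0.02, 0.11 and 0.013 at the same 4 times, and the 73 mitochondrial ribosomal proteins, which serve the other ribosome of the cell, had 0.07, 0.089, 0.0096 and 0.19. Across all arrays 1 initiation factor was called lower, Eif2s2 at IONC 12 h (-1.10), and without IONC 12 h replicate 2 it was called lower in 5 comparisons. Without that array other initiation factors were called higher, Eif1ax in 3 comparisons and Eif1a, Eif3f, Eif3k, Eif3l and Eif6 in 1 each. The IONC 12 h median of the initiation factors was -0.23, and 0.12 without replicate 2. Of the mitochondrial ribosomal proteins, Mrpl49 (-0.83) and Mrps22 (-0.84) were called lower at IONC 12 h and Mrpl1 (-0.70) at IONC 48 h, and Mrps9 (0.69) was called higher at IONT 15 d. The IONC 12 h median of that list was -0.36, and 0.056 without replicate 2, and Mrps22 was then not called. Leaving that array out gave 7 mitochondrial genes called lower at IONC 48 h, 6 lower at IONT 7 d and 5 higher at IONT 15 d. Among 7 measured relatives of ribosomal proteins outside the symbol rule, Rpl26l1, a paralogue of Rpl26, was called higher at IONT 15 d, at 4.42 against 3.38 (1.04; limma adjusted p of 0.00662). Its mean over all arrays was 2.93, near the dimmest genes, and its mean change over the 11 comparisons with naive was -0.29. The size of its change is therefore not read. Of the list of 21 aminoacyl-tRNA synthetases 3 had a probe set, the cytosolic phenylalanine enzyme's Farsa and Farsb and the mitochondrial Fars2, with none called.

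Of the genes that make ribosomes, Taf1b and Rrn3 passed the test across all arrays, both as lower. Among 42 measured factors of ribosome biogenesis and RNA polymerase I, Taf1b, a subunit of the selectivity factor SL1 that places the polymerase on ribosomal DNA, was called lower in 9 of the 11 comparisons. It averaged 6.63 at IONT 48 h and 6.48 at IONC 48 h, against 7.51 in naive replicates 1 to 3, changes of -0.88 and -1.03 (limma adjusted p of 3.66e-06 and 1.02e-06). Rrn3, which makes the polymerase competent to start, was called lower at IONC 12 h (-0.56; limma adjusted p of 0.00775). Without IONC 12 h replicate 2, 5 genes of that list were called higher at IONT 15 d and 5 lower at IONT 7 d. Its medians ran between -0.22 at IONT 7 d and 0.26 at IONT 15 d, apart from IONC 12 h, with -0.39 and, without replicate 2, 0.077.

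Of the 19 measured regulators in the mTOR and TOP list, the mTOR inhibitors Ddit4 and Sesn2 and the translational repressor Eif4ebp1 were among those called lower. Ddit4 averaged 9.56 at IONT 48 h, against 11.05 in naive replicates 1 to 3, a change of -1.49 (limma adjusted p of 0.00365). Eif4ebp1 averaged 4.06 at IONT 7 d, against 6.47, a change of -2.41 (limma adjusted p of 0.000942). Sesn2 averaged 5.83 at IONC 12 h, against 9.27, a change of -3.44 (limma adjusted p of 2.3e-05). The IONC 12 h mean of Sesn2 includes replicate 2. The median of the list in that group was -0.47, and 0.017 without replicate 2. Larp1, which binds the TOP tract, was called lower at IONC 12 h, at 8.31 against 8.96 (limma adjusted p of 0.00542), but not there without replicate 2. With that array left out it was called lower in 3 other comparisons, IONT 7 d (-0.53), IONC 3 d (-0.43) and IONC 7 d (-0.39). Raptor, which recruits substrates to mTOR complex 1 and is listed as Rptor, was called lower at IONT 7 d (-0.75; limma adjusted p of 0.00313). Rictor, the defining subunit of mTOR complex 2, was lower at IONT 48 h by a change of -0.74 (limma adjusted p of 0.00483). Myc, a transcription factor that drives ribosome production, was called higher at IONC 12 h alone, at 4.24 against 2.56, a change of 1.68 (limma adjusted p of 0.00259). Calls as lower without IONC 12 h replicate 2 numbered 7 for Sesn2, 7 for Rictor, 5 for Ddit4 and 3 for Eif4ebp1, of 11 comparisons each, against 1, 2, 2 and 3 across all arrays. Mtor was called in no comparison across all arrays, with changes of -0.33 to 0.22.

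**Figure D5:**
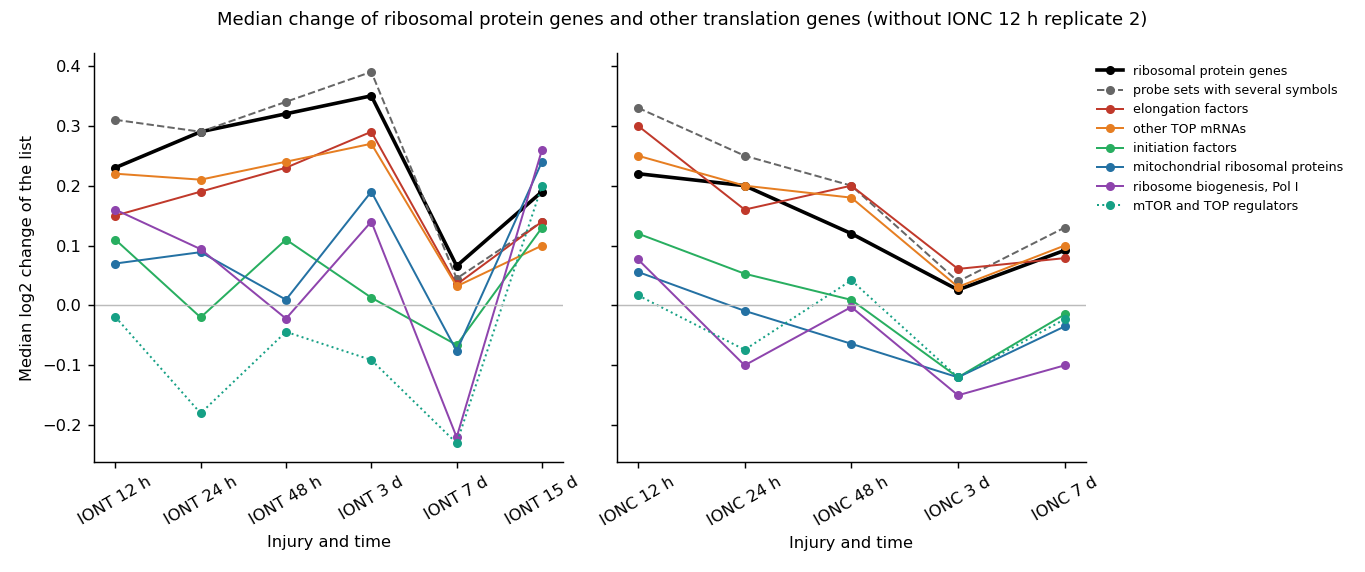
Median log2 change, without IONC 12 h replicate 2, of the 44 ribosomal protein genes (black), the 33 probe sets with several symbols (grey) and other lists of translation genes, after IONT (left) and IONC (right). The lines only link the points, since IONT 24 h, 3 d and 15 d are set against other naive arrays than the rest. The 44 genes stand at 0.23 to 0.35 over the first 4 IONT times and the elongation factors at 0.15 to 0.29, while the mTOR and TOP regulators lie between -0.18 and -0.019 there.

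Markers of other cell types differed over the same arrays. The summed linear signal of 7 rod markers was 108000 to 116000 at IONT 12 h, 96700 to 105000 at IONT 48 h and 125000 to 137000 at IONT 7 d, against 129000 to 131000 in naive replicates 1 to 3. In the crush groups in order of time it was 80000 to 97800, 120000 to 126000, 112000 to 119000, 127000 to 137000 and 117000 to 133000, against the same naive arrays. It was 124000 to 127000 at IONT 24 h, 114000 to 115000 at IONT 3 d and 112000 to 118000 at IONT 15 d, against 126000 to 133000 in naive replicates 4 and 5. The rod sum was thus under naive at IONT 12 h, 48 h, 3 d and 15 d and at IONC 12 h, 24 h and 48 h, and overlapped with naive in the other groups, IONT 24 h with its ribosomal protein median of 0.29 among them. For the 10 markers of microglia, macrophages and leukocytes the sum was 269 to 361 in naive replicates 1 to 3. It was 588 to 1020 at IONT 12 h, 1110 to 2090 at IONT 48 h and 882 to 1240 at IONT 7 d. In the crush groups in order of time it was 432 to 1830, 461 to 1500, 1570 to 2870, 1100 to 4810 and 933 to 1700. Naive replicates 4 and 5 had 361 to 390. IONT 24 h had 517 to 716, IONT 3 d 1500 to 2460 and IONT 15 d 1070 to 1370. Every injured group thus lay above its naive arrays. The ranges of IONT 48 h, IONT 3 d, IONC 48 h and IONC 3 d overlapped, with ribosomal protein medians of 0.32, 0.35, 0.12 and 0.026. The 5 lens markers summed to 23500 to 57500 at IONT 24 h, 41200 to 45600 at IONT 3 d and 16500 to 18000 at IONT 15 d, against 59300 to 80000 in naive replicates 4 and 5, and 4 of the 5 were called lower at IONT 15 d. The part of any of these cell types in the ribosomal protein values was not tested.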

How the data were processed

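The deposited table held 35 arrays of log2 signals on 31099 probe sets, which the authors background-corrected, quantile-normalised and summarised with GCRMA; the GCRMA version is not given in the sources consulted. The submitters' processing notes also name limma. Array number limits the precision. Of these probe sets, 57 controls were left out and 31042 were tested. The annotation given for the platform names 1 gene for 20826 of them, several for 436 and none for 9780. Rat promoters and starts came from RefSeq (GRCr8).

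A linear model with 1 coefficient per group, naive replicates 1 to 3 and 4 to 5 being separate groups, was fitted with limma 3.58.1 in R 4.3.3 to the 35 arrays (22 residual degrees of freedom). Calls asked for a Benjamini-Hochberg adjusted p under 0.01 over all probe sets, log odds above 0 and 1.2-fold, the study's limma thresholds. Shares of all genes refer to 1 probe set per gene. The study also ran maSigPro, a test over the time course, and lists its naive arrays as 1 control group. It reported ribosomal protein genes as regulated after transection and not after crush. Its calls and those here thus differ in method. The fit was tested on simulated data. Genes were named by size of change among those called, by role, and at the ends of the signal range. In the comparisons with naive no gene of the 44 was called, so the first part was applied to the fit without IONC 12 h replicate 2. The genes, lists and tests were chosen with earlier results of these data known. Alternatives were other thresholds, naive groupings, scalings and weights, and each array left out in turn.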

Additional observations from a re-analysis of the deposited data

Results flagged for a closer look

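The change of Rpl34 against its own naive arrays was lower after crush than after transection at 3 d, and the difference between the 2 changes was tested itself. Its change against naive was 0.55 after transection, and IONC minus IONT was -0.60. The difference passed the limma test only without IONC 12 h replicate 2 (SE 0.12, adjusted p of 0.00738), not across all arrays (SE 0.22, adjusted p of 0.4). The injured groups themselves had like signals, 12.99, 13.06 and 12.92 at IONC 3 d and 12.89 and 13.10 at IONT 3 d. The naive arrays read 12.36 and 12.52 (replicates 4 and 5) and 13.05, 13.02 and 13.03 (replicates 1 to 3).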

How the results depend on the processing

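The number of arrays limits every value, and IONC 12 h replicate 2 decides most counts of calls. Leaving out single arrays in turn gave 0 to 9 genes of the 44 called at IONT 24 h, 0 to 15 at IONT 48 h, 0 to 12 at IONT 3 d, 0 to 2 at IONT 15 d, 0 to 1 at each of IONC 12 h, 24 h and 48 h and at IONC minus IONT 12 h and 3 d, and 4 to 21 between the naive sets. The highest count came without IONC 12 h replicate 2, except for IONC minus IONT 12 h, where it came without IONC 12 h replicate 1. Without IONC 12 h replicate 1, 4 genes were called at IONT 48 h, without IONT 24 h replicate 2, 1 at IONT 24 h, and without IONT 15 d replicate 2, 1 at IONT 15 d. Leaving out naive replicate 1, 2, 3 or 4 gave 4 between the naive sets. The medians then ran from 0.20 to 0.32 (IONT 24 h), 0.33 to 0.43 (IONT 3 d), 0.057 to 0.11 (IONC 7 d), -0.13 to -0.0069 (IONC minus IONT 24 h), -0.41 to -0.28 (IONC minus IONT 3 d), -0.43 to -0.35 (naive sets), -0.16 to 0.22 (IONC 12 h) and -0.40 to -0.016 (IONC minus IONT 12 h). The last 2 ranges run between the values without IONC 12 h replicate 1 and replicate 2. The IONC 12 h median of -0.012 was 0.17 with all 5 naive arrays as 1 group, 0.23 with cyclic loess, 0.30 with array weights and -0.12 with arrays centred, where the median over all genes was -0.18. The lowest IONC 7 d value came without naive replicate 3, and IONC minus IONT 24 h was -0.0069 without IONT 24 h replicate 2 and -0.03 without naive replicate 4.

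With all 5 naive arrays as 1 group the medians were 0.41, 0.076, 0.47, 0.16, 0.22 and -0.032 in the IONT groups in order of time, 0.34, 0.28, 0.18 and 0.25 in the IONC groups after 12 h, and 0.26 and 0.092 for IONC minus IONT at 24 h and 3 d. No naive array entered the IONC minus IONT values, which then compared the injured groups directly. Calls numbered 1 at IONT 24 h, 5 at IONT 48 h and 3 at IONC minus IONT 24 h. Rps16 then had -0.11 at IONT 24 h and -0.063 at IONT 3 d, and Rpsa -0.16 at IONT 3 d. With arrays centred on their medians, the medians were 0.16 (IONT 24 h), 0.20 (IONT 3 d), -0.019 (IONT 15 d), 0.05 (IONC minus IONT 24 h) and -0.22 (IONC minus IONT 3 d), with 1 call at IONT 15 d. Leaving out IONC 12 h replicate 2 as well, a setting chosen after seeing the data, kept those 5 medians at the printed precision and gave 11 calls at IONT 48 h, 1 at IONT 3 d, 2 at IONT 15 d, 1 at IONC 12 h, 2 at IONC 24 h, 1 at IONC 48 h and 22 between the naive sets.

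Cyclic loess gave 2 (IONT 24 h), 9 (IONT 48 h), 14 (IONT 3 d) and 8 (IONT 15 d) calls, 2 at IONC 12 h, 1 at IONC 48 h, 1 at IONC minus IONT 3 d and 15 between the naive sets, with medians of 0.27 (IONT 48 h), 0.39 (IONT 3 d), 0.016 (IONT 7 d), 0.30 (IONT 15 d), 0.063 (IONC 7 d) and -0.23 (naive sets). Array weights gave 10, 10, 21, 1, 1 and 1 calls in the IONT groups in order of time, 24, 10, 3 and 2 at IONC 12 h to 3 d, 1, 2 and 3 for IONC minus IONT at 12 h to 48 h and 23 between the naive sets, with a median of 0.10 at IONT 7 d. An adjusted p under 0.05 alone gave 5 calls at IONT 48 h, 1 at IONT 3 d, 1 at IONC minus IONT 12 h and 21 between the naive sets. Between the naive sets 12 genes were called without the log odds threshold and 3 after a filter on low values, with a median of -0.45. Averaging all probe sets per gene gave 1 call at IONC minus IONT 48 h. Apart from the fit without IONC 12 h replicate 2, the settings of this section are given without the share of all genes called. Their counts are therefore not read as particular to the ribosomal protein genes. The causes of these shifts were not tested.

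Samples of the same replicate number did not deviate together (median r of 0.0242 over 168 pairs, against -0.00878 over 396 other pairs), so the numbers do not pair the arrays. A replicate block gave 4 calls between the naive sets and 0 in every other comparison.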
